A study of Mus musculus with 6 samples.

Results

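Collagens, laminins and the proteins that join them build the extracellular matrix around and inside the embryonic spinal cord. They were taken here as every probe set annotated to 1 collagen chain or 1 laminin chain, with Nid1, Nid2, Hspg2, Agrn and Fn1 added. Collagen symbols had the form Col, number, a, number, and laminin symbols began with Lama, Lamb or Lamc. The rule used symbols and no measured values, but it was set with earlier results of these data known. This gave 61 probe sets of 28815 and 59 genes of 19920: 44 collagen chains, 10 laminin chains and the 5 added genes. By role they were 23 basement membrane genes, 11 fibrillar collagens, 24 other collagens and fibronectin. Col6a5 and Col6a6 had 2 probe sets each, and 1 per gene was used in all counts.

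The RNA came from the cervical cord of E11.5 mouse embryos (embryonic day 11.5), without dorsal cord and floor plate, and was measured on whole-transcript arrays. The 3 arrays labelled Nkx2.9 knockout (A, B and C) were set against 3 wild-type arrays (A, B and C), all of the same stage and tissue. The series asked which genes act downstream of this homeodomain factor as spinal accessory motor neurons form. The deleted part of the gene, the strain, and whether an array held 1 embryo or a pool are not given in the labels. The p-values set a difference against the spread between these arrays. Whether that is spread between embryos or between pools is not known.

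A basement membrane is a thin sheet of matrix. Laminin polymers attach to cell receptors, collagen IV forms a second network, and nidogens and perlecan link the networks. In the neural tube such a sheet lines the outer surface where motor axons leave, and another surrounds each vessel. Fibrillar collagens make up the loose matrix of mesenchyme and the future skeleton, and the remaining collagens sit on fibrils, form microfibrils or span the cell membrane.

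Col4a1 on the minus strand and Col4a2 on the plus strand start next to each other in opposite directions, and their RefSeq start sites (build GRCm38.p6) lie within chr8:11312805-11312826, where the first 22 bases of both overlap. Col4a5 and Col4a6 on chromosome X are also arranged in opposite directions, with starts 1343 bases apart. The RefSeq promoter windows held 43 of the 59 genes. The next 2 sequences are the 150 bases upstream of the start of Nid1 (chr13:13437452-13437601, plus strand) and Col3a1 (chr1:45311388-45311537, plus strand), a basement membrane gene and a fibrillar gene that were both highest on the array labelled knockout C. Capitals mark the GC box GGGCGG and the letters TATAAA, each searched on both strands.

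Nid1: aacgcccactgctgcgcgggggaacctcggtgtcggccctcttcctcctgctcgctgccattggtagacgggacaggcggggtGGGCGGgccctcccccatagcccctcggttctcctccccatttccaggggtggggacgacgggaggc

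Col3a1: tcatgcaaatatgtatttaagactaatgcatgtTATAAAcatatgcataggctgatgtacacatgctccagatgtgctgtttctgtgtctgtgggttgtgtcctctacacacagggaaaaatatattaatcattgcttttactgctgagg

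The Nid1 stretch held the GC box and was 70.7% G and C, and the Col3a1 stretch held TATAAA and was 37.3% G and C. In the 150 bases upstream of a start, 25 of the 48 windows of the 43 genes held the GC box (52.1%), against 28.6% of all 32851 windows. TATAAA stood in those bases of 4 member windows and in 7.57% of all windows. These are matches of letters, not sites.

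All values below are log2 values centred on the median of the probe set over the 6 arrays, so they show differences between arrays and not levels, and no gene's level can be set against another's. For the same reason the labelled tissue could not be checked by marker levels. The SD of an array's values was 0.19 on the array labelled knockout C and 0.098 to 0.14 on the other 5 arrays. Nkx2-9 stood at -0.071, 0.26 and 0.11 in labelled knockout A, B and C, against -0.21, 0.071 and -0.11 on wild-type arrays A, B and C. The targeted gene was not lower in the arrays labelled knockout (log2 fold change 0.18, SE 0.11, adjusted p = 0.812 in limma), so they are called by their label throughout, and the position of its probes relative to the deletion is not given. Xist, expressed from the inactive X of females, was at 4.56 and 4.91 on labelled knockout B and C and between -0.25 and 0.11 on the other 4 arrays. The part of this split in the differences below was not tested.

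Matrix genes of basement membranes gave the highest differences, with log2 fold changes (labelled knockout minus wild type) of 0.34 for Nid1, 0.33 for Lamb1 and 0.27 for Lama2, and Fn1 at 0.32. The lowest were Col9a3 and Col12a1, both at -0.16, and Agrn at -0.15. Of 23 basement membrane genes 19 had a positive value (median 0.063) and 12 were highest on 1 array, labelled knockout C. No collagen, laminin or related gene passed an adjusted p of 0.05 in limma, as no probe set in the table did (0% of all probe sets). Their adjusted p ran from 0.812 to 0.999. At an unadjusted p under 0.05 there was 1 member higher in the arrays labelled knockout, Lama1 (background 3.07% of all probe sets), and 0 lower (background 2.5%). The 3 arrays labelled knockout lay wholly above the wild type in 2 members, Lama1 and Lama5 (background 6.68%), and wholly below in 1, Col9a3 (background 4.25%). Counting direction alone, 39 of 59 members were higher and 20 lower, with a median log2 fold change of 0.026, beside 55.1% higher and a median of 0.0093 over all genes. The shares of members at an unadjusted p under 0.05, and of members separated, were all under the background. The share past the adjusted threshold was 0% in both. Over all probe sets 886 were higher and 719 lower at an unadjusted p under 0.05. Without labelled knockout A 5 probe sets passed the adjusted threshold, of which 0 were members. The count of 1 higher member was 0 without labelled knockout C or wild type B and 2 without labelled knockout B or wild type C. Without labelled knockout A the 1 higher member was Col5a1 (unadjusted p = 0.0130 in limma) and not Lama1. Without labelled knockout B, 1 member was lower.

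**Figure D1:**
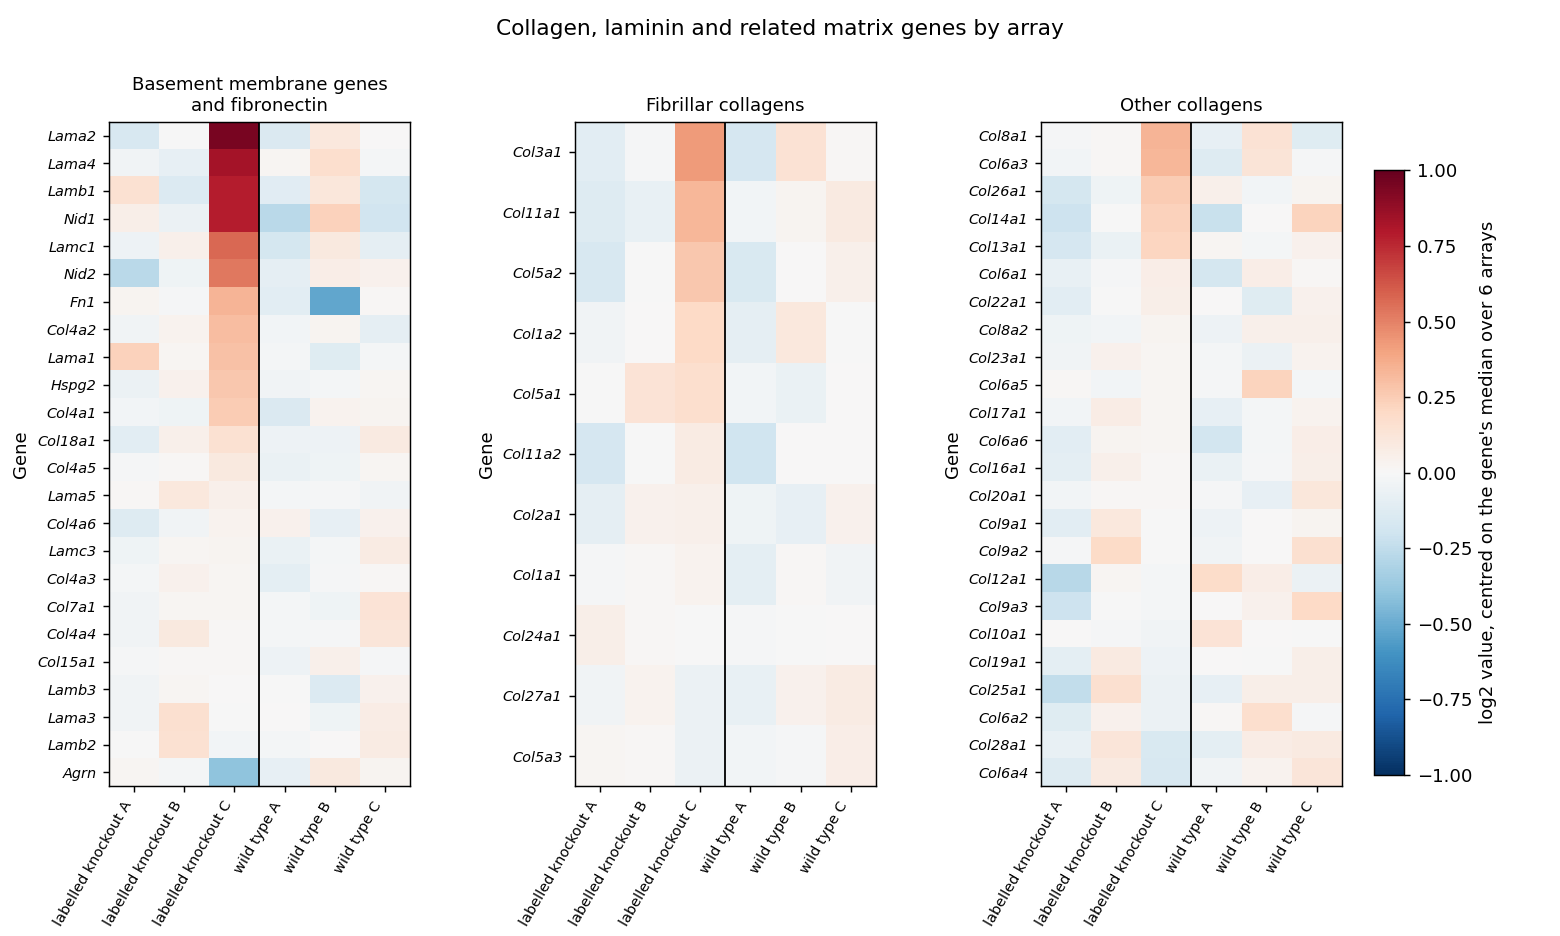
Centred log2 values of the 59 genes (rows, ordered within each panel by labelled knockout C) on the 6 arrays (columns, labelled knockout left of wild type); red is above and blue below the gene's median. The dark red cells stand in 1 column, labelled knockout C, from 0.95 for Lama2 down the left panel, while Agrn is blue there at -0.40.

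The array that stood out for these genes was labelled knockout C. A value above 0.25 occurred on that array for 17 of the 59 members (28.8%), beside 6.64% of all genes, and for 0 members on any of the other 5 arrays, where 0.838% to 3.50% of all genes passed it. The bound of 0.25 was set after the values were seen, and on that array Col26a1 (0.253) and Col4a1 (0.255) were just inside it, Col14a1 (0.234) and Col13a1 (0.211) just outside. On other arrays, Nid1 (0.233) and Col6a5 (0.226) on wild type B were also just under it. So were Lama1 (0.232) on labelled knockout A and Col14a1 (0.221) on wild type C. The count on the other arrays thus depends on the bound. The 17 were 10 basement membrane genes, the fibrillar Col3a1, Col11a1 and Col5a2, the other collagens Col8a1, Col6a3 and Col26a1, and Fn1.

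The laminin chains split on that array. Lama2, the alpha chain of muscle, nerve and vessel laminin, stood at -0.16, -0.0061 and 0.95 in labelled knockout A, B and C, against -0.14, 0.11 and 0.0061 on wild-type arrays A, B and C. Lama4, the alpha chain of vessel basement membranes, measured -0.035, -0.083 and 0.83 in the arrays labelled knockout, against 0.020, 0.17 and -0.020 in the wild type. Lamb1, the common beta chain, stood at 0.16, -0.14 and 0.79, against -0.11, 0.11 and -0.18 in the wild type. Labelled knockout C was far the highest array in each of these 3 genes. The other arrays of both groups overlapped in Lama2 and Lamb1. In Lama4, labelled knockout A and B lay below all 3 wild-type arrays. Lamc1, the common gamma chain, had the form of Lama2 and Lamb1. It was at -0.051, 0.051 and 0.58 in the arrays labelled knockout and -0.18, 0.10 and -0.090 on the wild-type arrays.

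The log2 fold changes of these 4 chains were 0.27 (SE 0.28) for Lama2, 0.18 (SE 0.24) for Lama4, 0.33 (SE 0.23) for Lamb1 and 0.25 (SE 0.17) for Lamc1, with adjusted p in limma from 0.814 to 0.910. Each difference was smaller than the SD of the arrays labelled knockout: Lamb1 averaged 0.27 ± 0.47 (SD, n = 3) there, against -0.060 ± 0.15 (SD, n = 3) for wild type. Without labelled knockout C the differences were -0.074 for Lama2, -0.12 for Lama4, 0.068 for Lamb1 and 0.055 for Lamc1, so that 2 of the 4 had the other sign.

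Lama1 behaved otherwise. It encodes the alpha chain of the earliest embryonic laminin. Its values were 0.23, 0.016 and 0.29 in labelled knockout A, B and C, against -0.017, -0.12 and -0.016 on wild-type arrays A, B and C. High values came from A and C, and B lay just above the wild type. The log2 fold change was 0.23 (SE 0.081, 1.17-fold, unadjusted p = 0.0267 and adjusted p = 0.812 in limma), and 0.18 without labelled knockout C. Its unadjusted p in limma was 0.0806 without labelled knockout A, 0.0765 without labelled knockout C and 0.0840 without wild type B. With any other array left out it ran from 0.00245 to 0.0490.

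Lama5, the widely expressed alpha chain that follows Lama1 in many epithelia, was at 0.013, 0.10 and 0.048 in the arrays labelled knockout, against -0.020, -0.013 and -0.034 in the wild type. All 3 were above the wild type, by little: the log2 fold change was 0.077 (SE 0.042, adjusted p = 0.812 in limma), and 0.080 without labelled knockout C.

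The remaining 4 chains differed by less than 1 SE. Lama3, an alpha chain of skin and other epithelia, was at -0.036, 0.16 and -0.0042 in labelled knockout A, B and C, against 0.0042, -0.041 and 0.075 on wild-type arrays A, B and C (log2 fold change 0.028, SE 0.067). Lamb3, its partner in epidermal laminin, was at -0.033, 0.018 and 0.0051, against -0.0051, -0.13 and 0.045 in the wild type (0.028, SE 0.057). Lamb2, the beta chain of nerve-muscle synapses and the kidney filter, was at -0.0026, 0.15 and -0.026, against -0.019, 0.0026 and 0.080 in the wild type (0.019, SE 0.062). In these 3 chains the groups overlapped, with labelled knockout B highest for Lama3 and Lamb2. Lamc3, a gamma chain, was at -0.039, 0.021 and 0.029, against -0.070, -0.021 and 0.079 in the wild type (0.0072, SE 0.053). On labelled knockout C these 4 chains stood between -0.026 and 0.029. All 10 laminin chains had a positive log2 fold change, with a median of 0.13, and 7 of 10 did without labelled knockout C, with a median of 0.052.

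Nidogens were high on labelled knockout C, as were Lama1, Lama2, Lama4, Lamb1 and Lamc1 but not every laminin chain. Nid1, which bridges laminin and collagen IV, was at 0.058, -0.058 and 0.79 in labelled knockout A, B and C, against -0.27, 0.23 and -0.19 on wild-type arrays A, B and C. Its log2 fold change was 0.34 (SE 0.25, adjusted p = 0.821 in limma), and 0.074 without labelled knockout C. Nid2, its relative, was at -0.27, -0.041 and 0.52, against -0.090, 0.063 and 0.041 in the wild type, and its log2 fold change of 0.066 (SE 0.19) was -0.16 without that array. For Nid2 the arrays labelled knockout thus held both the lowest and the highest value of the 6.

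Perlecan and agrin, the heparan sulfate proteoglycans of basement membranes, parted. Hspg2, which encodes perlecan, was at -0.055, 0.043 and 0.27 in the arrays labelled knockout, against -0.037, -0.022 and 0.022 in the wild type (log2 fold change 0.097, SE 0.085). Agrn, whose product gathers acetylcholine receptors at the nerve-muscle synapse and is made by motor neurons, was at 0.022, -0.022 and -0.40, against -0.084, 0.10 and 0.026 in the wild type (log2 fold change -0.15, SE 0.12). So labelled knockout C had the highest value of Hspg2 and the lowest of Agrn, and without it the differences were 0.0062 and -0.014. Neither passed (adjusted p = 0.843 for Hspg2 and 0.836 for Agrn in limma).

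Among the collagen IV chains, Col4a1 and Col4a2 encode the broadly used pair. Col4a1 was at -0.027, -0.039 and 0.26 in labelled knockout A, B and C, against -0.15, 0.038 and 0.027 on wild-type arrays A, B and C. Col4a2 was at -0.038, 0.038 and 0.31, against -0.028, 0.028 and -0.091 in the wild type. Both were highest on labelled knockout C, and their log2 fold changes were 0.090 (SE 0.097) and 0.13 (SE 0.095), with -0.0068 and 0.030 without that array.

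The chains used in specialised membranes such as the kidney filter stood lower on that array, between 0.011 and 0.096. Col4a3 was at -0.019, 0.042 and 0.020 in labelled knockout A, B and C, against -0.096, -0.015 and 0.015 on wild-type arrays A, B and C (log2 fold change 0.047, SE 0.047). Col4a4 was at -0.035, 0.095 and 0.011, against -0.016, -0.011 and 0.12 in the wild type (-0.0090, SE 0.060). Both overlapped between the groups. The X-linked Col4a5 was at -0.0091, 0.0091 and 0.096, against -0.066, -0.044 and 0.016 in the wild type (0.063, SE 0.049). Its X-linked neighbour Col4a6 was at -0.13, -0.037 and 0.037, against 0.045, -0.082 and 0.045 in the wild type (-0.046, SE 0.062). The other collagens of basement membrane zones, Col7a1, Col15a1 and Col18a1, had log2 fold changes of -0.021 (SE 0.059), 0.0035 (SE 0.045) and 0.040 (SE 0.080).

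Fn1, which encodes fibronectin, the integrin ligand of early embryonic matrix, rested on an array of each group. It was at 0.029, -0.015 and 0.34 in labelled knockout A, B and C, against -0.11, -0.52 and 0.015 on wild-type arrays A, B and C. Wild type B was the low array and labelled knockout C the high one. The log2 fold change was 0.32 (SE 0.16, 1.25-fold, adjusted p = 0.812 in limma), 0.21 without labelled knockout C and 0.16 without wild type B.

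**Figure D2:**
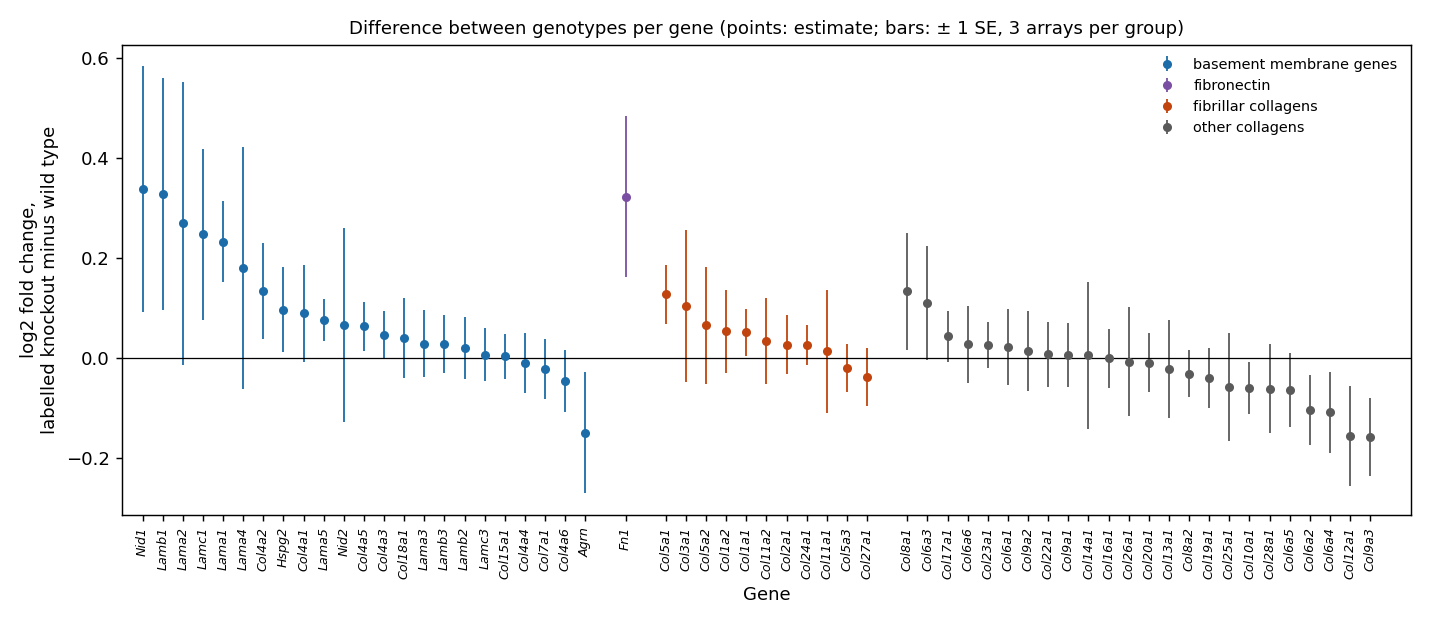
Log2 fold change, labelled knockout minus wild type, of each of the 59 genes (points) with 1 SE of the limma fit (bars), 3 arrays per group, grouped by role. Most bars cross 0; Nid1 (0.34), Lamb1 (0.33) and Fn1 (0.32) are the highest points and Col9a3 and Col12a1 (both -0.16) the lowest.

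Fibrillar collagens differed by at most 0.13 on the log2 scale. Of 11 chains 9 had a positive and 2 a negative log2 fold change (median 0.034), and 0 passed (adjusted p from 0.812 to 0.992 in limma). Col5a1, which starts fibrils together with collagen I, was at -0.0071, 0.13 and 0.17 in labelled knockout A, B and C, against -0.025, -0.068 and 0.0071 on wild-type arrays A, B and C. Its log2 fold change of 0.13 (SE 0.059) had the lowest p of the group (unadjusted p = 0.0711 in limma), the groups overlapped at A, and the difference was 0.092 without labelled knockout C.

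Col3a1, the collagen of pliable connective tissue and vessel walls, was at -0.11, -0.013 and 0.42 in the arrays labelled knockout, against -0.17, 0.14 and 0.013 in the wild type (log2 fold change 0.10, SE 0.15). It was high on labelled knockout C alone, and the difference was -0.057 without it. Col1a2 stood at -0.039, 0.0072 and 0.20, against -0.090, 0.11 and -0.0072 in the wild type (0.053, SE 0.083). Col1a1, its partner in collagen I, stood at -0.014, 0.014 and 0.034, against -0.099, 0.015 and -0.035 in the wild type (0.051, SE 0.046), and so stood closer to 0 on labelled knockout C. Both collagen I chains overlapped between the groups. Col24a1 was at 0.062, 0.010 and -0.0043 in the arrays labelled knockout, against -0.011, -0.0039 and 0.0039 in the wild type (0.026, SE 0.040). Col27a1, a fibrillar chain of cartilage, was at -0.037, 0.037 and -0.061, against -0.075, 0.044 and 0.084 in the wild type (-0.038, SE 0.057). Both overlapped and differed by less than 1 SE. Col2a1, the main collagen of cartilage, had no array beyond 0.088 in either direction and a log2 fold change of 0.027 (SE 0.059). Labelled knockout C held the highest value for 8 of the 11 fibrillar chains and 12 of the 23 basement membrane genes, but 6 of the 24 other collagens, against 27.4% of all genes.

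The other collagens were divided in direction, since 10 of 24 had a positive log2 fold change and 14 a negative one (median -0.0079). Col9a3, a chain of the cartilage-type collagen IX, was at -0.21, -0.0034 and -0.022 in labelled knockout A, B and C, against 0.0034, 0.044 and 0.20 on wild-type arrays A, B and C. The groups did not overlap, but the nearest arrays differed by little. Its log2 fold change was -0.16 (SE 0.078, adjusted p = 0.812 in limma), while the partner chains Col9a1 (0.0058, SE 0.064) and Col9a2 (0.014, SE 0.081) stood near 0. The value of Col9a3 was -0.094 without labelled knockout A and -0.10 without wild type C.

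Col12a1, a chain found on the surface of collagen I fibrils, was at -0.28, 0.017 and -0.017 in the arrays labelled knockout, against 0.18, 0.065 and -0.062 in the wild type (log2 fold change -0.16, SE 0.10). Labelled knockout A was lowest and wild type A highest, and the difference was -0.063 without labelled knockout A and -0.094 without wild type A. Collagen VI, which forms beaded microfibrils, was split among its chains. Col6a2 was at -0.12, 0.042 and -0.058 in the arrays labelled knockout, against 0.015, 0.17 and -0.015 in the wild type (-0.10, SE 0.070). Col6a4 was at -0.13, 0.091 and -0.16, against -0.033, 0.033 and 0.12 in the wild type (-0.11, SE 0.081). Another chain of the family, Col6a3, had a positive difference (0.11, SE 0.11), with 0.33 on labelled knockout C, and was -0.0021 without it. Of the network-forming chains, Col8a1, known from vessels and the cornea, was at -0.015, 0.015 and 0.34, against -0.083, 0.14 and -0.12 in the wild type (0.13, SE 0.12), and was 0.020 without labelled knockout C. Col10a1, the collagen of hypertrophic cartilage, was at 0.0047, -0.012 and -0.039, against 0.14, 0.00068 and -0.00068 in the wild type (-0.060, SE 0.052). Wild type A alone was high for Col10a1. Col14a1 differed by 0.0056 (SE 0.15) although it ran from -0.22 to 0.23: it was low on both A arrays and high on both C arrays.

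By kind, 4 of 9 fibril-associated, 3 of 8 beaded filament and related, 1 of 3 network and 2 of 4 transmembrane chains were higher. The second probe sets did not settle their genes. Col6a5 was at -0.064 and 0.049 and Col6a6 at 0.027 and -0.063 in log2 fold change, all with an SE at or above 0.058.

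**Figure D3:**
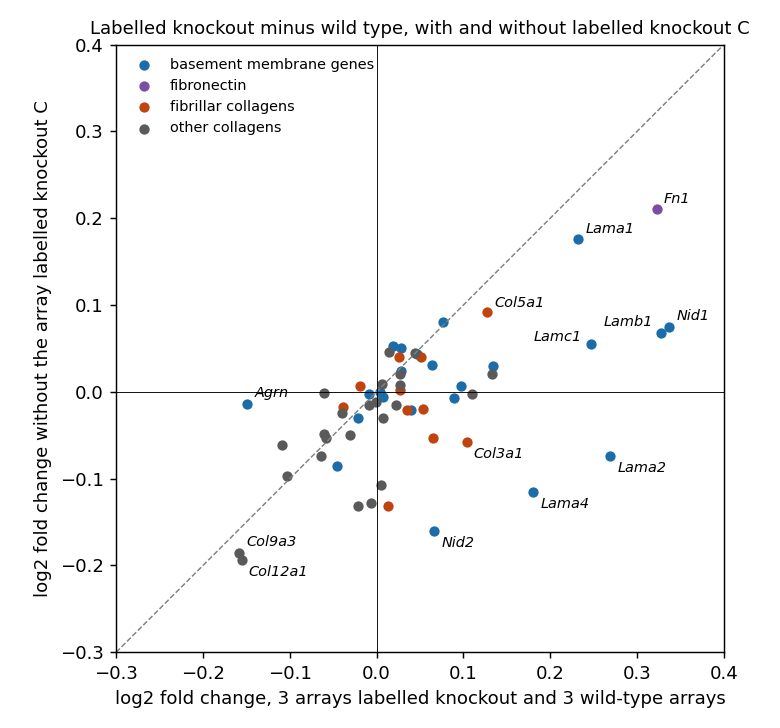
Log2 fold change, labelled knockout minus wild type, with all 6 arrays (x axis) and without labelled knockout C (y axis) for the 59 genes; the dashed line marks equal values. Lama2, Lama4 and Nid2 lie below 0 on the y axis, Lamb1, Lamc1 and Nid1 lie at 0.068, 0.055 and 0.074, and Lama1 and Fn1 remain at 0.18 and 0.21.

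With labelled knockout C left out, 25 of the 59 members had a positive log2 fold change, beside 10302 of all 19920 genes, and the median over all 59 was -0.0068. The 17 members above 0.25 on that array had a median of 0.13 with it and -0.0021 without it, the first being fixed in part by how they were picked. Medians without it were 0.0062 for basement membrane genes, -0.018 for fibrillar and -0.027 for other collagens.

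Markers of mesenchyme and endothelium were high on the same array. All 7 of 7 mesenchyme markers were highest on labelled knockout C, where their median was 1.70, against -0.025 on labelled knockout A, -0.026 on B and -0.063 to 0.21 on the wild-type arrays. Foxc2 reached 3.01, Twist1 2.32, Pdgfra 1.74 and Prrx1 1.70. Endothelial markers, highest there in 6 of 7, had a median of 0.98, against -0.13 to 0.024 on labelled knockout A and B and -0.081 to 0.081 in the wild type, with Cdh5 at 1.37 and Kdr at 1.08. The 4 neuron markers had a median of -0.19 on labelled knockout C and -0.040 to 0.12 elsewhere. Pericyte markers (median -0.13), muscle markers (0.016), macrophage markers (0.082) and erythroid markers (0.012) stood closer to 0 there, as did notochord and floor plate markers (-0.0085) and neural progenitor markers (-0.069), and neural crest markers reached 0.25 (3 genes) and sclerotome markers 0.17 (3 genes). No marker passed the adjusted threshold in limma; Foxa2 was higher and Elavl3 lower at an unadjusted p under 0.05. By direction of the log2 fold change, 7 of 7 mesenchyme, 6 of 7 endothelial, 2 of 3 sclerotome, 3 of 3 neural crest, 3 of 3 erythroid, 3 of 3 notochord and floor plate, 2 of 5 pericyte, 2 of 4 muscle, 2 of 4 neural progenitor, 0 of 4 neuron and 0 of 4 macrophage markers were higher. In 3 of the 4 neuron markers the arrays labelled knockout lay wholly below the wild type (background 4.25% of all probe sets). The neuron median log2 fold change was -0.17 with labelled knockout C and -0.11 without it, where 0 of 4 were higher. For mesenchyme it was 0.49 with that array and -0.074 without it (2 of 7 higher). For endothelium it was 0.27 and -0.069 (3 of 7 higher). The part of other tissue in the matrix gene values was not tested, and in bulk RNA more cells of a type and more RNA per cell cannot be told apart. Of the wild-type arrays, B had the highest mesenchyme median (0.21, with Foxc2 at 1.21 and Twist1 at 0.86). Nid1 (0.23), Lama4 (0.17), Col3a1 (0.14), Col8a1 (0.14), Col6a3 (0.13), Lamb1 (0.11), Lama2 (0.11) and Lamc1 (0.10) were also highest there among the wild-type arrays. This held for 11 of the 17 members above 0.25 on labelled knockout C, 10 of the other 42 members and 36.6% of all genes. Of the same 17 members, Fn1 (-0.52), Lama1 (-0.12) and Col26a1 (-0.030) were instead lowest on wild type B among the wild-type arrays.

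**Figure D4:**
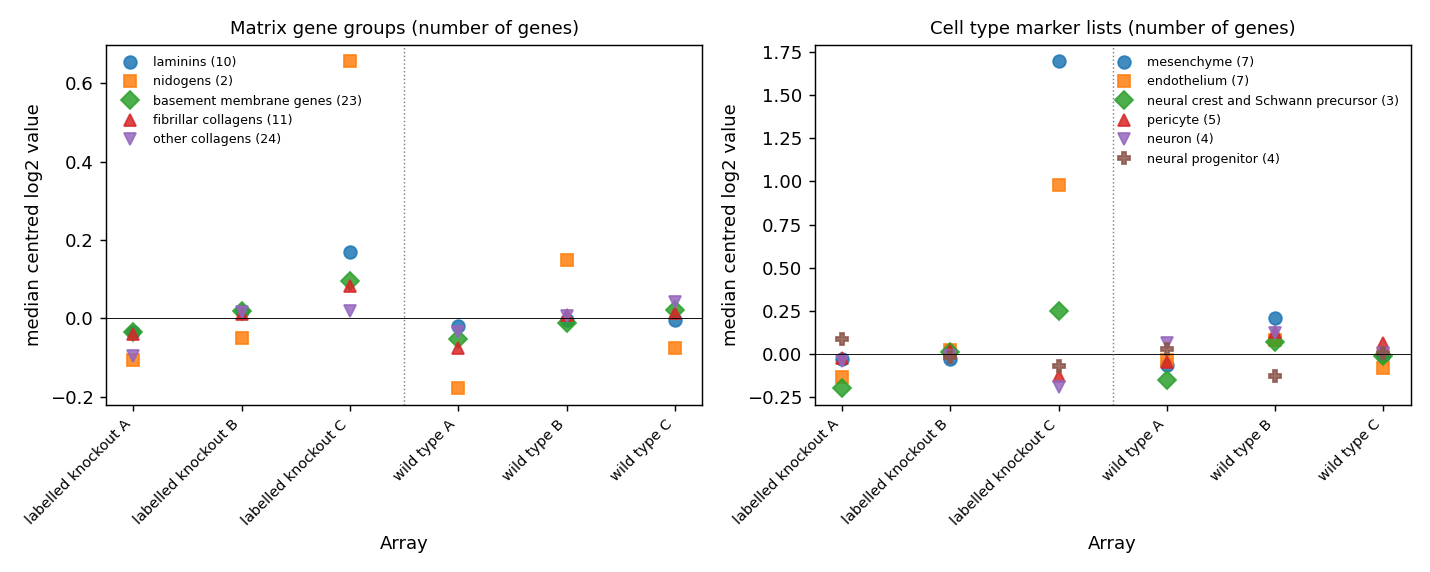
Median centred log2 value per array (x axis, labelled knockout left of wild type) of matrix gene groups (left) and cell type marker lists (right); the number of genes is in each legend. On labelled knockout C the nidogens reach 0.66 and the laminins 0.17, beside 1.70 for mesenchyme and 0.98 for endothelial markers, while the other collagens stay at 0.018.

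Genes that make, bind or degrade these proteins were compared in the same fit, and 0 of them passed over all probe sets (adjusted p from 0.812 up in limma). Of 21 enzymes that modify or process collagen, 13 were higher and 8 lower. At an unadjusted p under 0.05, 3 enzymes were higher and 0 lower, beside 3.07% higher and 2.5% lower over all probe sets. In the 3 lists that follow, 0 genes had such a p. The median over the enzymes was 0.041, and 0.0082 without labelled knockout C. Plod2, a lysyl hydroxylase that prepares collagen for crosslinking, was at 0.21, 0.074 and 0.36 in labelled knockout A, B and C, against -0.074, -0.18 and -0.22 on wild-type arrays A, B and C. The groups did not overlap, and the log2 fold change was 0.37 (SE 0.082, 1.29-fold, unadjusted p = 0.00343, adjusted p = 0.812 in limma), with 0.30 without labelled knockout C. Loxl3, a lysyl oxidase that forms such crosslinks, was at 0.074, 0.12 and 0.19, against -0.078, -0.074 and -0.12 in the wild type (log2 fold change 0.22, SE 0.046, unadjusted p = 0.00277 in limma, 0.19 without labelled knockout C). Bmp1, which trims procollagens, differed by 0.16 (SE 0.066, unadjusted p = 0.0488 in limma), and by 0.10 without wild type A. In all 3 genes, and in P4hb, the arrays labelled knockout lay wholly above the wild type. That was 4 of the 21 enzymes, with 0 wholly below, beside 6.68% and 4.25% of all probe sets. The 3 genes were named for their low p, so their separation is not a further result.

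Of 23 receptors for collagen, laminin and fibronectin, 18 were higher and 5 lower, with a median log2 fold change of 0.12 that was 0.026 without labelled knockout C. Their median on that array was 0.29. Sdc1, a syndecan, was at 0.25 (SE 0.11), the integrin chains Itgb3 and Itgb8 at 0.26 (SE 0.13) and 0.12 (SE 0.073) in log2 fold change. Without labelled knockout C, Sdc1 was at 0.13 and Itgb3 at 0.11, and without wild type B Itgb8 was at 0.062. Of 12 metalloproteinases and inhibitors 5 were higher and 7 lower (median -0.027, and -0.073 without labelled knockout C), with Timp2 at -0.12 (SE 0.055), Mmp9 at -0.14 (SE 0.077) and Mmp16 at -0.15 (SE 0.093). Mmp9 was at -0.073 without wild type B and Mmp16 at -0.085 without labelled knockout A. Of 19 further matrix proteins 13 were higher and 6 lower (median 0.034, and 0.0042 without labelled knockout C). The highest values of that list on labelled knockout C were 3.31 for Lum, 1.92 for Postn, 1.31 for Fbn2 and 0.75 for Tnc, named after their values were seen. Their log2 fold changes were 0.52 (SE 1.01), 0.52 (SE 0.54), 0.34 (SE 0.38) and 0.13 (SE 0.24), and without that array -0.61, -0.13, -0.13 and -0.14. Wild type B was the highest wild-type array for each, at 1.66, 0.50, 0.22 and 0.38, so these differences rest on it too. Without wild type B they were 1.10, 0.72, 0.44 and 0.27. Fbln1, a fibulin, was at 0.21 (SE 0.12), and 0.098 without labelled knockout C, and Fbln5 at 0.060 (SE 0.038). Dcn, which encodes decorin, a collagen-binding proteoglycan, was at 0.84 (SE 0.58) in log2 fold change. It stood at -2.02 on wild type B alone, and the difference was 0.16 without that array.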

How the data were processed

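RMA (robust multi-array average) is the only step named in the submitters' processing notes for the log2 values that the authors deposited; its version is not given in the sources used here, and base 2 was taken as the base RMA uses. Sense-strand cDNA was made from total RNA by whole-transcriptome amplification and carried biotin, per the labels' protocols. All 28791 complete probe sets had a median of 0 over the arrays (within 1e-06), so levels and signal over background are lost. The 24 others, missing on the array of wild type C, were fitted on 5 arrays; no member was among them.

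Probe sets were named from the platform annotation where it gave 1 symbol (21780), not where it gave several (1605) or none (5430); 21689 matched RefSeq (GRCm38.p6) by Entrez identifier, all 61 members included, with 0 symbols differing. The complete probe set with most accessions stood for a gene. Genotype was the only term in limma 3.58.1 (R 4.3.3), checked on simulated data, with Benjamini-Hochberg adjustment over all 28815 probe sets. Per-array values were printed for laminin and collagen IV chains, the 5 added genes, and the 6 fibrillar and 6 other collagens of lowest p, and in each further list the 3 genes of lowest p were named; members beyond these, Col2a1 and Col14a1 among them, and single marker genes were named after their values were seen. Members and lists were chosen with earlier results of these data known. Figures used matplotlib 3.10.9.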

Additional observations from a re-analysis of the deposited data

How the results depend on the processing

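No member passed the adjusted threshold in limma under any of the 6 alternatives (replicate block, median centring of arrays, quantile normalization, array weights, robust variance prior, mean over a gene's probe sets) or with any of the 6 arrays left out. Over the whole table the count was 0 in each, except 5 without labelled knockout A (leaving out arrays, 0 to 5). At an unadjusted p under 0.05, members ran from 0 to 2 higher and 0 to 1 lower when an array was left out. Over all 19920 genes, 713 (without wild type B) to 2216 (without labelled knockout B) had such a p in either direction. The medians ran from -0.018 to 0.10 for fibrillar collagens, 0.0062 to 0.097 for basement membrane genes, -0.037 to 0.046 for other collagens and 0.052 to 0.18 for laminins.

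The letters A, B and C do not pair the samples by the labels. Deviations of same-letter arrays correlated at 0.165 for A, 0.216 for B and 0.0159 for C, and labelled knockout C did not correlate best with its own letter. With the replicate block, 2 members were higher (Lama1 and Fn1) and 1 lower (Col9a3) at an unadjusted p under 0.05, with adjusted p in limma of 0.439, 0.462 and 0.551.

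Of 33 members with per-array values, 22 held their sign with each array left out. The other 11 ran from -0.020 to 0.11 (Col1a2), -0.057 to 0.21 (Col3a1), -0.0068 to 0.14 (Col4a1), -0.045 to 0.037 (Col4a4), -0.074 to 0.48 (Lama2), -0.033 to 0.067 (Lama3), -0.12 to 0.34 (Lama4), -0.036 to 0.053 (Lamb2), -0.023 to 0.067 (Lamb3), -0.026 to 0.049 (Lamc3) and -0.16 to 0.24 (Nid2). Array weights put Col4a4 at 0.0021, and quantile normalization put Lamc3 at -0.00080 and Nid2 at -0.0029. The cause was not tested. With 3 arrays a group and centred values, signal over background cannot be seen and differences of this size have SEs of similar size.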
